A study of Gallus gallus with 15 samples.

Results

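The 7 genes described here are EDN3, ZNF831, PRELID3B, ATP5E, TUBB1, CTSZ and NELFCD, which lie next to each other on chicken chromosome 20. They are 7 of the 11528 genes that could be named on the array. They and the gene lists below were chosen with earlier results of these data known. Counts or medians set beside those of all features are therefore descriptions, not independent tests of these sets. A feature was taken only if the platform annotation gave it exactly 1 gene symbol, and each of the 7 genes had 1 such feature. Liver RNA came from 15 male birds aged 13 weeks, with 1 array per bird. Each of the 5 breeds gave 3 birds. Yeonsan Ogye, called Og here, Hyunin Black (Bl), the Hwangbong breed (Hw) and the Hoengseong Yakdak breed (Ya) are native to Korea, and White Leghorn (WL) was the control breed. Fertilized eggs came from local farms, and all chicks were hatched and raised with free access to feed on a single university farm. The labels give no genotype at the EDN3 locus, no skin or plumage colour and no family of any bird.

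Endothelin 3, the product of EDN3, is a secreted peptide that acts on endothelin receptor B and, in birds, on its relative EDNRB2. Through these receptors it drives the proliferation and migration of melanoblasts, the precursors of pigment cells. In black-skinned chickens with fibromelanosis, a dominant spread of pigment cells into skin and internal organs, a rearranged duplication on this chromosome includes EDN3. Yeonsan Ogye is known as such a black breed. Whether any of these birds carried the duplication, and which of the neighbouring genes it would include, was not examined, because no DNA was measured.

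The arrays were even, with pairwise correlations from 0.977 to 0.991 over the 18308 features. The 10 measured hepatocyte markers, such as albumin and apolipoprotein genes, had a mean between 13.14 and 13.34 in every bird. Levels below are log2 expression values, differences are between breed means on that scale with the standard error (SE) of the model, and p-values are from limma, adjusted by Benjamini-Hochberg over all features. A gene passed at an adjusted p under 0.05.

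ATP5E was the single gene of the 7 whose level passed the test of any difference among the 5 breeds, and it was higher in Yeonsan Ogye. The test was limma's moderated F test, which 1.6% of all features passed. ATP5E had the largest F of the 7 (adjusted p = 0.0147). ZNF831 followed with F = 6.44 (adjusted p = 0.105), PRELID3B with F = 5.71 (adjusted p = 0.133) and TUBB1 with F = 4.98 (adjusted p = 0.167). EDN3 itself had F = 3.71 (adjusted p = 0.254), CTSZ F = 1.64 (adjusted p = 0.558) and NELFCD F = 0.428 (adjusted p = 0.907). Without Og 2, 0 of the 7 genes passed this F test, and without Ya 1, 2 passed.

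ATP5E encodes the epsilon subunit of mitochondrial ATP synthase, the enzyme that makes ATP from the proton gradient of respiration. Its levels were 10.40, 10.21 and 10.12 in Og, against 8.95, 9.67 and 9.38 in Bl, 9.40, 9.36 and 9.27 in Hw, 9.33, 9.24 and 8.93 in Ya, and 9.06, 9.33 and 9.31 in WL. Every Og bird was above every bird of the other breeds, and the other 4 breeds overlapped. The breed means were 10.24 ± 0.14 in Og, 9.33 ± 0.36 in Bl, 9.34 ± 0.07 in Hw, 9.17 ± 0.21 in Ya and 9.23 ± 0.15 in WL (SD, n = 3 each). ATP5E rose 2.01-fold in Og against WL, a difference of 1.01 ± 0.16 (adjusted p = 0.0234). It rose 1.86-fold against Hw, by 0.90 ± 0.16 (adjusted p = 0.0400), and 2.11-fold against Ya, by 1.08 ± 0.16 (adjusted p = 0.0126). These 3 comparisons share the Og birds. Against Bl the difference was 0.91 ± 0.16 and did not pass (adjusted p = 0.0850), with a 95% interval of 0.56 to 1.26. Without Bl 2, the highest Bl bird and so the nearest to Og, it was 1.08 and passed (adjusted p = 0.0167). That was 1 of 15 fits with 1 array left out (adjusted p up to 0.250), and it passed under 0 of 8 other alternatives. The call against WL was lost when any 1 of the Og or WL birds was left out (adjusted p up to 0.0884), and the call against Hw was lost in 9 of 15 such fits (adjusted p up to 0.137), namely those without any 1 of the Og or Hw birds and those without Bl 3, Ya 2 or WL 2. The call against Ya held in 15 of 15 fits with 1 array left out.

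PRELID3B encodes a member of the PRELI family, whose proteins carry phospholipids between the mitochondrial membranes. Its levels were 8.82, 8.85 and 8.52 in Og, against 7.80, 8.29 and 7.64 in Bl, 8.03, 6.92 and 7.32 in Hw, 8.34, 7.11 and 7.32 in Ya, and 7.64, 7.80 and 7.41 in WL. The Og birds were the 3 highest of the 15. Hw and Ya each held 1 bird well above the other two, Hw 1 and Ya 1, and the ranges of Bl, Hw, Ya and WL overlapped. The breed means were 8.73 ± 0.18 in Og, 7.91 ± 0.34 in Bl, 7.42 ± 0.56 in Hw, 7.59 ± 0.65 in Ya and 7.62 ± 0.20 in WL (SD, n = 3 each). Apart from that with Bl, the differences of Og were larger than those of ATP5E, with wider errors: 1.31 ± 0.31 against Hw (adjusted p = 0.0968), 1.14 ± 0.31 against Ya (adjusted p = 0.160), 1.11 ± 0.31 against WL (adjusted p = 0.218) and 0.82 ± 0.31 against Bl (adjusted p = 0.507). None passed with all arrays. Without Ya 1, the differences from Hw and from Ya passed (adjusted p = 0.0465 and 0.0499), and without Hw 1 the difference from Hw passed (adjusted p = 0.0492). These were 2 of 15 fits with 1 array left out for Hw and 1 of 15 for Ya. Under 8 other alternatives, 0 passed for either.

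ZNF831, a zinc finger protein gene, had levels of 5.64, 6.26 and 6.05 in Og, against 5.65, 5.48 and 5.50 in Bl, 5.10, 5.40 and 5.57 in Hw, 5.05, 5.20 and 5.50 in Ya, and 5.23, 5.31 and 5.39 in WL. Og 2 and Og 3 stood above all birds of the other breeds. Og 1 lay between Bl 1 and the highest Hw bird, so Og overlapped Bl but not Hw, Ya or WL. The breed means were 5.98 ± 0.32 in Og, 5.54 ± 0.09 in Bl, 5.36 ± 0.24 in Hw, 5.25 ± 0.23 in Ya and 5.31 ± 0.08 in WL (SD, n = 3 each). The differences of Og were 0.73 ± 0.16 against Ya (adjusted p = 0.0940), 0.62 ± 0.16 against Hw (adjusted p = 0.145), 0.67 ± 0.16 against WL (adjusted p = 0.165) and 0.44 ± 0.16 against Bl (adjusted p = 0.507). Without Og 1, the lowest Og bird, the difference from Ya was 0.90 and passed (adjusted p = 0.0344). That was 1 of 15 fits with 1 array left out, and it passed under 1 of 8 other alternatives.

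TUBB1 encodes a beta tubulin that in birds is made by red blood cells and thrombocytes, the nucleated avian counterpart of platelets, where it builds the marginal band of microtubules. Its Bl mean lay near its Og mean. Its levels were 6.13, 6.85 and 6.45 in Og and 6.42, 6.74 and 6.12 in Bl, against 5.64, 5.59 and 5.93 in Hw, 5.92, 5.72 and 6.27 in Ya, and 5.35, 6.18 and 5.59 in WL. Ya 3 and WL 2 were above the lowest Og and Bl birds, whereas all Hw birds were below them. The breed means were 6.48 ± 0.36 in Og, 6.43 ± 0.31 in Bl, 5.72 ± 0.19 in Hw, 5.97 ± 0.28 in Ya and 5.71 ± 0.43 in WL (SD, n = 3 each). Og and Bl differed by 0.05 ± 0.24, with a 95% interval of -0.46 to 0.56, which leaves room for a difference of moderate size either way. Against WL, Og was 0.77 ± 0.24 higher (adjusted p = 0.303) and Bl 0.72 ± 0.24 higher (adjusted p = 0.245), and neither passed.

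EDN3 was 1 of the features left out by a filter on low values run as an alternative, and its level is not shown to be above array background. Its values were 4.62, 4.26 and 4.35 in Og, against 4.35, 4.22 and 4.13 in Bl, 4.12, 3.79 and 4.03 in Hw, 3.89, 4.04 and 4.22 in Ya, and 4.53, 4.20 and 4.32 in WL. Og 1 was the highest bird and WL 1 the next, and the 3 Og birds lay within or close to the WL range. The breed means were 4.41 ± 0.19 in Og, 4.24 ± 0.11 in Bl, 3.98 ± 0.17 in Hw, 4.05 ± 0.17 in Ya and 4.35 ± 0.16 in WL (SD, n = 3 each), so that WL stood next to Og in order. The difference of Og from WL was 0.06 ± 0.14, with a 95% interval of -0.23 to 0.35. The wider gaps were 0.42 ± 0.14 for Og against Hw (adjusted p = 0.234), 0.35 ± 0.14 for Og against Ya (adjusted p = 0.355) and -0.37 ± 0.14 for Hw against WL (adjusted p = 0.256), and none passed. At a level that may be background, the true size of any change cannot be read from these values.

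CTSZ and NELFCD, the last genes in the row, had nearly even levels. CTSZ encodes cathepsin Z, a lysosomal carboxypeptidase, and NELFCD a subunit of the negative elongation factor, which holds RNA polymerase II near promoters. CTSZ had levels of 11.16, 11.19 and 11.20 in Og and 11.27, 11.26 and 11.30 in Bl, against 10.99, 11.16 and 11.15 in Hw, 11.16, 11.26 and 11.21 in Ya, and 10.97, 11.10 and 11.18 in WL. The Bl birds were the 3 highest, by a margin of 0.005 over Ya 2. The difference of Bl from WL was 0.20 ± 0.09 (adjusted p = 0.406), and that of Og from WL was 0.10 ± 0.09, with a 95% interval of -0.09 to 0.29. NELFCD levels lay between 7.46 and 7.67 in Og, between 7.50 and 7.65 in Bl, between 7.51 and 7.61 in Hw, between 7.29 and 7.73 in Ya and between 7.30 and 7.67 in WL, and all breeds overlapped. Its difference of Og from WL was 0.12 ± 0.13, with a 95% interval of -0.15 to 0.40.

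**Figure D1:**
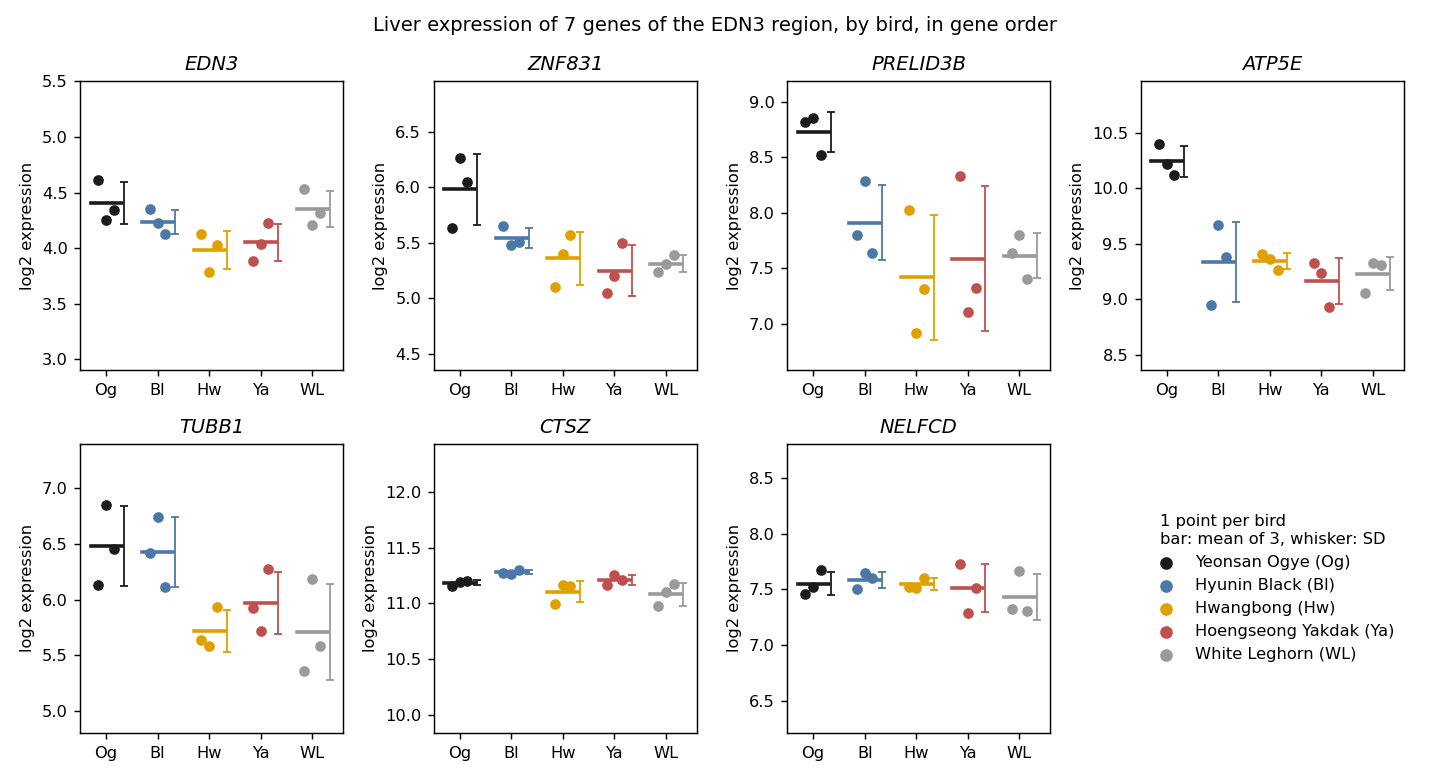
Log2 expression of the 7 genes in each of the 15 birds, in chromosome order, with 1 point per bird, a bar for the mean of 3 birds and a whisker for the SD, and the same span of log2 units on each vertical axis. All 3 Og birds stand above all birds of the other 4 breeds for ATP5E and PRELID3B, while the breeds overlap for NELFCD.

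The order of the breed means put Og highest for EDN3, ZNF831, PRELID3B, ATP5E and TUBB1, and Bl highest for CTSZ and NELFCD. Among neighbours in these orders, ATP5E in Og and Hw was the 1 pair that differed past the threshold. Over the 10 breed pairs, each adjusted within the pair, ATP5E was the 1 gene that passed, and it did so in 3 pairs. The shares of all features below are given for scale only, because the genes were chosen with earlier results of these data known. In Og against WL, 1 of 7 passed as higher (0.104% of all features did), 4 were higher at an unadjusted p under 0.05 (4.43%), and for 3 all Og birds lay above all WL birds (6.12% of features). In Og against Hw, 1 of 7 passed (0.126%), 5 were higher at an unadjusted p under 0.05 (4.88%), and for 5 the Og birds lay above all Hw birds (7.28%). In Og against Ya, 1 of 7 passed (0.208%), 4 were higher at an unadjusted p under 0.05 (5.1%), and for 4 the Og birds lay above all Ya birds (7.06%). In Og against Bl, 0 of 7 passed in limma (0.0273% as higher), 3 were higher at an unadjusted p under 0.05 (3.27%), and for 2, PRELID3B and ATP5E, the Og birds lay above all Bl birds (5.12%), while for CTSZ they lay below (6.31%).

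The pairs without Og held no call. In Bl against WL, 0 of 7 passed in limma (0.0874% of all features as higher) and 2, TUBB1 and CTSZ, were higher at an unadjusted p under 0.05 (6.19%). In Bl against Hw, 0 of 7 passed (0.169%) and 1, TUBB1, was higher at an unadjusted p under 0.05 (4.78%). In Bl against Ya, 0 of 7 passed (0.158%) and 0 were higher at an unadjusted p under 0.05 (6.13%). In Hw against WL, 0 of 7 passed in either direction (0.579%), and EDN3 alone had an unadjusted p under 0.05 (12.9% of features in either direction), with the lower level in Hw. In Ya against WL, 0 of 7 passed (0.552%), and again EDN3 alone had an unadjusted p under 0.05 (12.8%), lower in Ya. In Hw against Ya, 0 of 7 passed (1.46%) and 0 had an unadjusted p under 0.05 (13.2%). The difference of ATP5E was 0.10 ± 0.16 between Bl and WL, with a 95% interval of -0.25 to 0.45, and that of PRELID3B was 0.29 ± 0.31, with an interval of -0.37 to 0.96. Differences of 1 in ATP5E thus lie outside the interval for Bl.

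**Figure D2:**
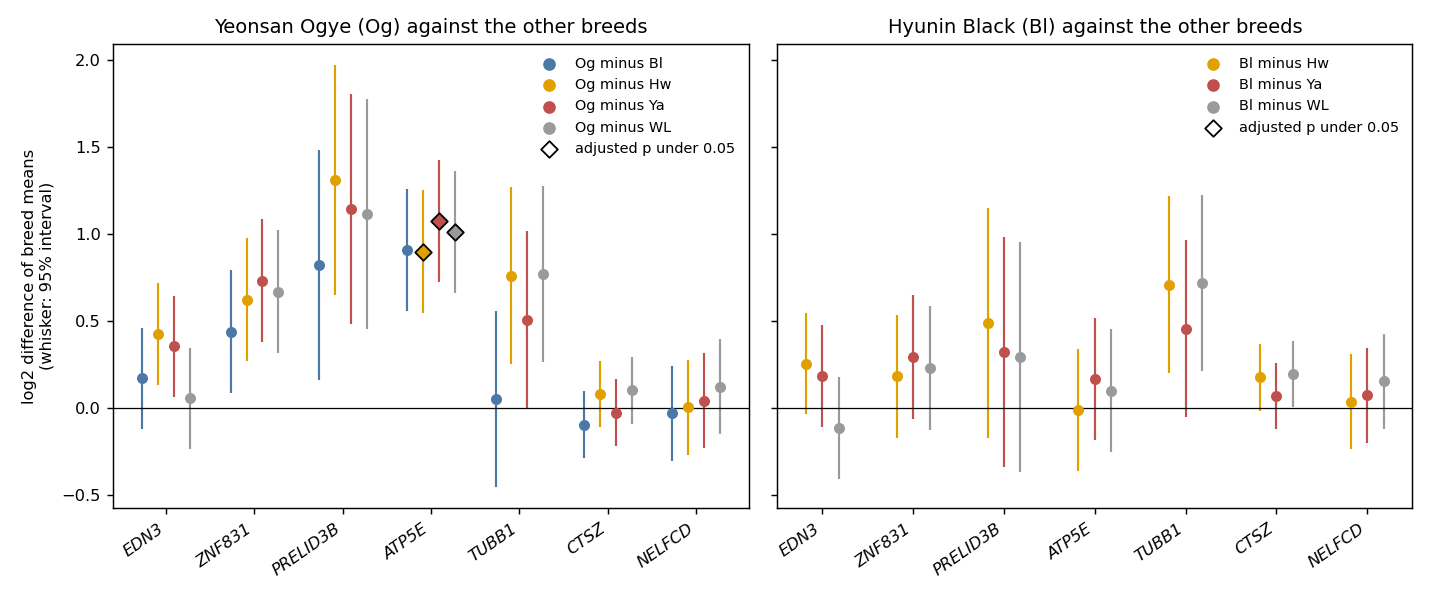
Log2 differences of breed means for the 7 genes, Og against each other breed on the left and Bl against Hw, Ya and WL on the right, with 95% intervals from limma and diamonds where the adjusted p is under 0.05. The 3 diamonds are all for ATP5E, at 0.90, 1.08 and 1.01 in Og against Hw, Ya and WL, and TUBB1 has the largest differences of Bl.

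Og and Bl were also set against the mean of Hw, Ya and WL, together and alone. For the mean of Og and Bl, 0 of 7 genes passed in limma (0.104% of all features did as higher), and 5 were higher at an unadjusted p under 0.05 (4.83%). The differences were 0.78 ± 0.20 for PRELID3B (adjusted p = 0.170), 0.65 ± 0.15 for TUBB1 (adjusted p = 0.125), 0.54 ± 0.11 for ATP5E (adjusted p = 0.0689), 0.45 ± 0.11 for ZNF831 (adjusted p = 0.125) and 0.19 ± 0.09 for EDN3 (adjusted p = 0.496). Without Bl 1, the bird with the second-lowest ATP5E level of all 15, the ATP5E difference was 0.64 and passed (adjusted p = 0.0192). That was 1 of 15 fits with 1 array left out, and it passed under 3 of 7 other alternatives. The 6 birds of the pair did not stand apart for any of the 7 genes, where 0.071% of all features had all 6 birds above the other 9. Counted bird by bird, 4 of the 6 were above the highest of the 9 others for ZNF831, ATP5E and TUBB1, 3 for PRELID3B and CTSZ, 1 for EDN3 and 0 for NELFCD.

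Taken alone, Og was higher for ATP5E by 0.99 ± 0.13, or 1.99-fold (adjusted p = 0.0121), and 1 of 7 genes passed where 0.0382% of all features did. A larger difference than that of ATP5E was seen in 0.24% of features. At an unadjusted p under 0.05, 5 of 7 were higher (4.02% of features). Because the genes were chosen with earlier results of these data known, such counts cannot test whether the set stands apart from all features. PRELID3B differed by 1.19 ± 0.25 (2.28-fold, adjusted p = 0.127), ZNF831 by 0.67 ± 0.13 (1.60-fold, adjusted p = 0.115), TUBB1 by 0.68 ± 0.19 (1.60-fold, adjusted p = 0.251) and EDN3 by 0.28 ± 0.11 (adjusted p = 0.498). For 3 genes, ATP5E, PRELID3B and ZNF831, the 3 Og birds were above all 9 birds of Hw, Ya and WL, as for 0.748% of all features. The ATP5E call was lost without Og 1 (adjusted p = 0.0626) or Og 2 (adjusted p = 0.0549). Conversely, ZNF831 passed without Og 1 (adjusted p = 0.0371) and PRELID3B without Ya 1 (adjusted p = 0.0390). For each gene that was 1 of 15 fits with 1 array left out, and 0 of 7 other alternatives passed.

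Bl alone gave 0 of 7 passing genes in limma (0.0273% of all features as higher) and 1, TUBB1, higher at an unadjusted p under 0.05 (5.19%). For 1 gene, CTSZ, all Bl birds were above the 9 others (0.901% of features). TUBB1 was 0.63 ± 0.19 higher (adjusted p = 0.302). PRELID3B differed by 0.37 ± 0.25, ZNF831 by 0.24 ± 0.13, CTSZ by 0.15 ± 0.07, EDN3 by 0.11 ± 0.11, and ATP5E and NELFCD by 0.09 each, with SE of 0.13 and 0.10. The median over the 7 genes was 0.67 in Og and 0.15 in Bl, against -0.002 and 0.006 over all features. The difference between Og and Bl was itself tested for each gene, as given above, and 0 of 7 passed with all arrays.

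In chromosome order, ZNF831, PRELID3B, ATP5E and TUBB1, the genes with the 4 largest differences of Og, sat side by side. The RefSeq annotation of the GRCg7b assembly, used here for gene order only, places the genes as EDN3, ZNF831, PRELID3B, ATP5E, TUBB1, CTSZ and NELFCD, with 1 unmeasured gene between PRELID3B and ATP5E. Along this row the differences of Og from the mean of Hw, Ya and WL were 0.28, 0.67, 1.19, 0.99, 0.68, 0.05 and 0.06, with 95% intervals of -0.10 to 0.21 for CTSZ and -0.17 to 0.28 for NELFCD. The step from TUBB1 to CTSZ, taken in each bird as the difference between both levels and compared between the 3 Og birds and the 9 Hw, Ya and WL birds, was 0.63 (two-sided exact permutation p = 0.0273, adjusted p = 0.164 over the 6 steps between neighbours). The other 5 steps had adjusted p-values between 0.395 and 0.945 in the same exact permutation test, whose smallest possible p was 0.00909. No step passed, and this test was chosen after the values were seen. It treated the 9 birds of Hw, Ya and WL as exchangeable, so its p-values do not measure a spread between breeds.

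No flanking gene passed in the fit of breed means alone. Of the 41 protein-coding genes annotated within 20 places on either side, 27 were measured. In limma, 0 of these 27 passed for any breed pair or for Og and Bl together. Over those 11 comparisons, all 18308 features gave 446 higher and 371 lower calls, so 0 among 27 genes does not set them apart. In Og against the mean of Hw, Ya and WL, 8 of the 27 were above 0 (9030 of 18308 features were). The median of the 27 was -0.04. At an unadjusted p under 0.05, 2 were higher (4.02% of all features) and 1 was lower (817 of 18308 features). The nearest measured neighbours were DDX27, an RNA helicase gene before EDN3, at -0.18 ± 0.10, and NPEPL1, an aminopeptidase-like gene after NELFCD, at -0.09 ± 0.21.

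RBM38 and PCK1, farther out, were singled out after their values were seen. RBM38, whose product is an RNA-binding protein induced by p53 in mammals, had levels of 9.08, 9.02 and 8.29 in Og and 8.32, 7.97 and 7.17 in Bl, against 7.50, 7.03 and 7.28 in Hw, 7.65, 6.95 and 7.02 in Ya, and 8.31, 7.74 and 7.35 in WL. Og 3 lay just below WL 1, so the groups overlapped. The difference of Og from the mean of Hw, Ya and WL was 1.37 ± 0.26, or 2.58-fold (adjusted p = 0.0932). It did not pass in this fit, but passed in an alternative fit with a block for replicate number, given below. PCK1, the gene of cytosolic phosphoenolpyruvate carboxykinase in gluconeogenesis, ranged from 5.38 to 11.95 over the 15 birds and differed by 1.80 ± 1.02 (adjusted p = 0.673). In 4 of 5 breeds, WL being the exception, the bird with the highest PCK1 level was also the bird with the highest PRELID3B level. The same held in 3 of 5 breeds for ATP5E and RBM38, in 2 for EDN3, TUBB1 and NELFCD, in 1 for ZNF831 and in 0 for CTSZ. With 3 birds per breed, some matches come about with no relation between the genes. The part of what PCK1 tracks in the PRELID3B spread was not tested.

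**Figure D3:**
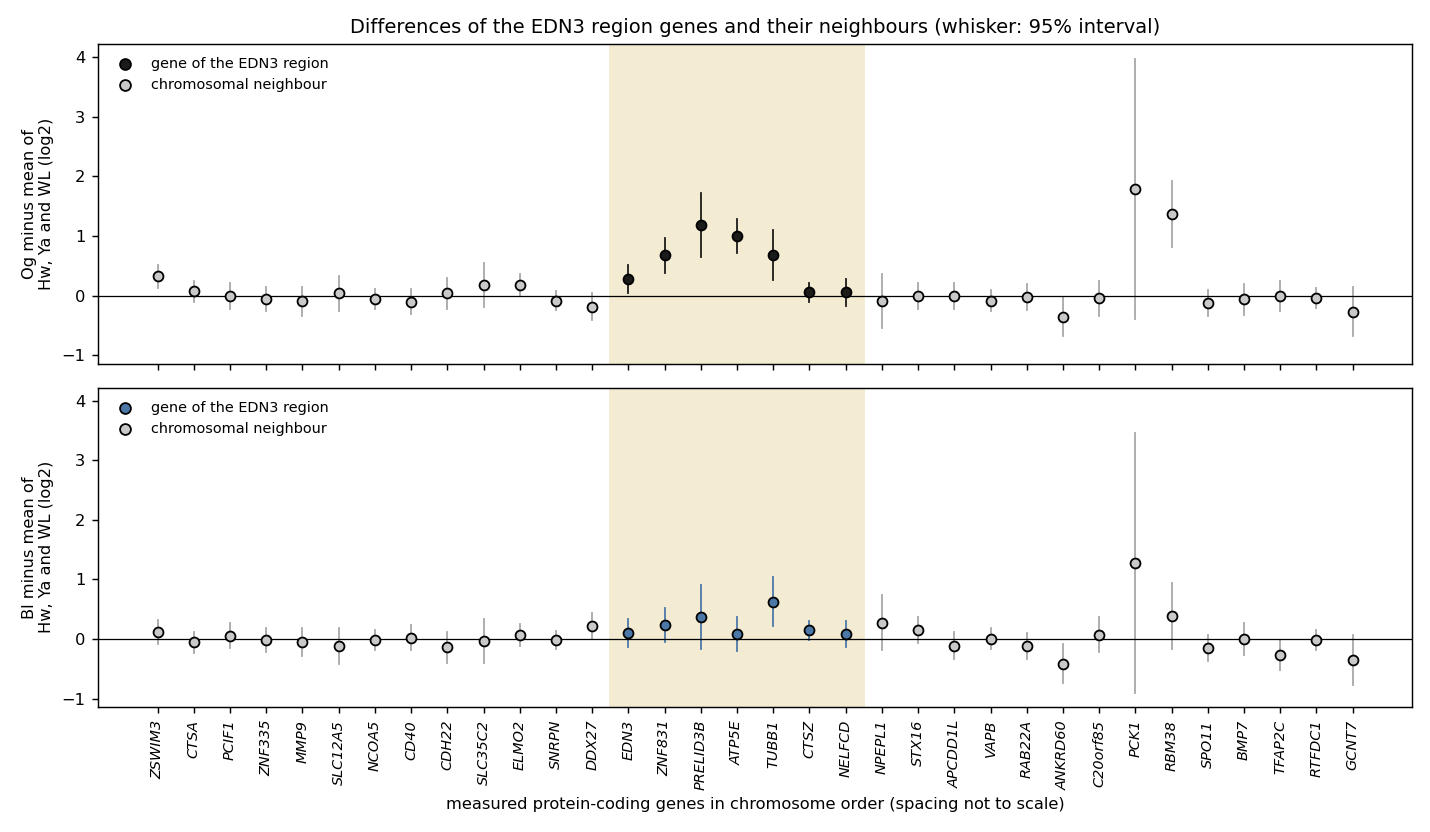
Log2 differences of Og (upper) and Bl (lower) from the mean of Hw, Ya and WL for the 7 genes, on the shaded ground, and 27 measured neighbours in chromosome order, with 95% intervals from limma. In Og, ZNF831, PRELID3B, ATP5E and TUBB1 lie between 0.67 and 1.19, CTSZ and NELFCD lie at 0.05 and 0.06, and the neighbours have a median of -0.04, with RBM38 at 1.37 and PCK1 at 1.80.

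The partners of each gene product were read from gene lists. In the endothelin pathway, 8 of 10 listed genes were measured. EDNRB2, the avian receptor of endothelin 3 on pigment cells, had levels between 9.17 and 9.86 over the 15 birds, and Og differed from the mean of Hw, Ya and WL by 0.01 ± 0.11. The other ligand genes, EDN1 and EDN2, had levels between 4.54 and 5.38. The 1 gene of this list to pass in any comparison was ECE1, which encodes the protease that cuts endothelins to their active form. Its levels were 8.15, 7.95 and 7.71 in Ya, against 8.81 in WL 2, 8.69 in WL 3 and a higher level in WL 1. All Ya birds lay below all WL birds, as for 1590 of 18308 features. ECE1 fell by 0.89 ± 0.16 on the log2 scale in Ya (adjusted p = 0.0254). That call was lost without Ya 2, Ya 3, WL 1 or WL 2, and with only the 6 arrays compared (adjusted p up to 0.105 over these fits). In Og, ECE1 lay 0.41 ± 0.16 below WL (adjusted p = 0.446).

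No pigment cell marker passed. Of 14 listed melanocyte genes, 11 were measured, and 0 passed in limma in any breed pair or for Og and Bl together. Calls were rare among all 18308 features too (446 higher and 371 lower over these 11 comparisons), so 0 of 11 does not set the markers apart. TYR, TYRP1, OCA2 and RAB38, which serve melanin synthesis and melanosomes, lay between 2.07 and 3.45 over the 15 birds. The mean of the 11 genes lay between 4.08 and 4.25 in Og birds and 4.17 and 4.31 in Bl birds, against 4.11 and 4.31 in Hw, 4.20 and 4.35 in Ya and 4.17 and 4.27 in WL. By this mean, the Og birds were not above the others. EDNRB2 lay between 9.17 and 9.86, and the other 10 genes between 2.07 and 5.56, without detection calls. PMEL, MLANA and MITF were listed but not measured. The mean therefore cannot show whether pigment cells were present in any liver. TYRP1, an enzyme gene of melanin synthesis, had the lowest adjusted p of the list in Og. It was 0.37 ± 0.09 lower than the mean of Hw, Ya and WL (adjusted p = 0.195), at levels not shown to be above background.

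No other ATP synthase gene passed. Of the 12 measured subunit and assembly genes, 0 passed in limma in any breed pair or for Og and Bl together. In the same 11 comparisons, all 18308 features gave 446 higher and 371 lower calls, so 0 of 12 does not set these genes apart. In Og against the mean of Hw, Ya and WL, 3 of 12 were above 0 (9030 of 18308 features were), with a median of -0.05. At an unadjusted p under 0.05, 1 was higher (4.02% of all features) and 2 were lower (817 of 18308 features). The higher one was ATP5B, the catalytic beta subunit, at 12.50, 12.49 and 12.68 in Og and 12.24, 12.69 and 12.94 in Bl, against 11.86, 12.10 and 11.87 in Hw, 12.33, 12.63 and 11.98 in Ya, and 11.83, 11.90 and 11.86 in WL. It was 0.52 ± 0.14 higher in Og (adjusted p = 0.240) and 0.58 ± 0.14 higher in Bl (adjusted p = 0.162), without passing. ATP5J, a subunit of the stalk, was at -0.30 ± 0.11 in Og (adjusted p = 0.413).

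For TUBB1, markers of the blood cells that carry it are given beside it. In a bulk tissue sample, fewer cells of a type and less RNA per cell cannot be told apart. Of 12 thrombocyte genes, 5 were measured, and the highest bird means over them were 5.32 in Og and 5.59 in Bl, against 5.16 in Hw, 5.37 in Ya and 5.13 in WL. The middle birds were at 5.30 in Og and 5.53 in Bl, against 5.05 in Hw, 5.09 in Ya and 5.06 in WL. The lowest Og and Bl birds, at 5.18 and 5.20, were above all Hw and WL birds and below Ya 3. In Og and Bl against the rest, 5 of 5 were above 0, with a median of 0.29, 3 were higher at an unadjusted p under 0.05 (4.83% of all features were) and 0 passed in limma (0.104%). In Og alone, 4 of 5 were above 0, with a median of 0.16, and 1 was higher at that unadjusted p (4.02%). In Bl alone, 5 of 5 were above 0, with a median of 0.21, and 3 were higher (5.19%). GP1BB, a subunit of the von Willebrand factor receptor, rose in Og against WL, with levels of 5.72, 5.37 and 5.53 in Og and 4.99, 4.99 and 4.85 in WL, by 0.60 ± 0.11 (adjusted p = 0.0429). That call was kept in 2 of 15 fits with 1 array left out, those without Og 2 or Hw 1, and was lost without any other bird (adjusted p up to 0.149). It was also lost with trend and robust moderation (adjusted p = 0.0623) and with only the 6 arrays compared (adjusted p = 0.306).

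Of 17 erythroid genes, 8 were measured, and their mean lay between 6.12 and 6.58 in Og birds and 6.26 and 6.59 in Bl birds, against 6.19 and 6.30 in Hw, 6.24 and 6.31 in Ya and 6.04 and 6.21 in WL. Against the mean of Hw, Ya and WL, 5 of 8 were above 0 in Og and 6 of 8 in Bl, with medians of 0.22 and 0.12. At an unadjusted p under 0.05, 1 was higher in Og (4.02% of all features) and 2 in Bl (5.19%). TAL1, EPB42 and SLC4A1 lay below 0 in Og, at -0.17, -0.12 and -0.01, and HBZ and HEMGN in Bl, at -0.15 and -0.14. HBA1, an alpha globin gene, was 0.36 ± 0.19 higher in Og (adjusted p = 0.638) and 0.86 ± 0.19 higher in Bl (adjusted p = 0.107) than in the mean of Hw, Ya and WL. F13A1, the coagulation factor XIII subunit gene of the thrombocyte list, was 0.19 ± 0.18 higher in Og and 0.75 ± 0.18 higher in Bl (adjusted p = 0.143). No erythroid gene passed in limma in any breed pair or for Og and Bl together. With 446 higher and 371 lower calls over all 18308 features in these 11 comparisons, 0 of 8 does not set the list apart. The part of blood left in the tissue, or of its cell makeup, in the TUBB1 values was not tested.

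**Figure D4:**
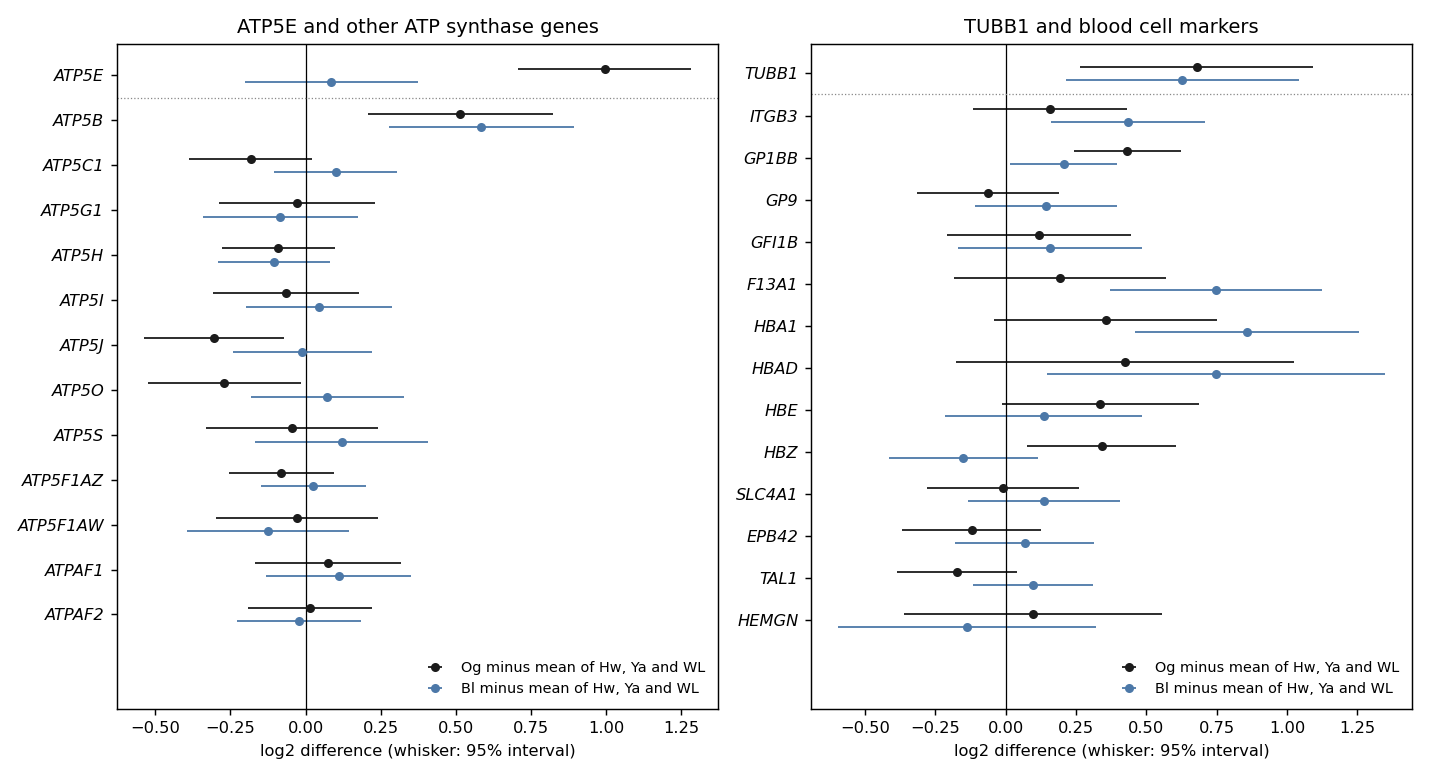
Log2 differences of Og (black) and Bl (blue) from the mean of Hw, Ya and WL, with 95% intervals from limma, for ATP5E above 12 other ATP synthase genes (left) and for TUBB1 above the 5 thrombocyte and 8 erythroid markers measured (right). ATP5E stands at 0.99 in Og with most of its partners near 0. TUBB1 is at 0.68 in Og and 0.63 in Bl, with markers of both signs: 9 of the 13 lie above 0 in Og and 11 of 13 in Bl. In Og the largest marker differences of the 2 lists are 0.43 for GP1BB and 0.42 for the erythroid gene HBAD. The HBAD mean in Og, 10.12, is near those in Hw and Ya, 10.10 and 10.03, while WL is lower at 8.95. In Bl, markers such as HBA1, at 0.86, and F13A1, at 0.75, differ more than TUBB1.

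The genes whose levels ran most like each of the 7 over the 15 birds were ranked by Pearson r, as a description over birds of 5 breeds, so that differences between breeds and between birds both enter r. For ATP5E they were MMP27, a matrix metalloproteinase gene (r = 0.904), MESP1, a mesoderm transcription factor gene (r = 0.890), and ABHD11, a mitochondrial hydrolase gene (r = 0.867). For PRELID3B they were RBM38 (r = 0.841), the cyclin-dependent kinase gene CDK17 (r = 0.840) and TBP, the TATA-binding protein gene (r = 0.818). RBM38 was the 1 gene of the 21 so listed that lies on chromosome 20. For ZNF831 they were OLFML2A (r = 0.805), MINA (r = 0.803) and DNAL4 (r = 0.802). MMP27 lay between 2.12 and 2.81 over the 15 birds, at levels not shown to be above background.

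For TUBB1 the most alike genes were RNF111, a ubiquitin ligase gene (r = 0.858), TSPO2, which encodes an erythroid membrane protein in mammals (r = 0.857), and APBB2 (r = 0.856). TSPO2 differed from the mean of Hw, Ya and WL by 0.50 ± 0.15 in Og (adjusted p = 0.296) and by 0.74 ± 0.15 in Bl (adjusted p = 0.0768). All 6 Og and Bl birds were above the 9 others for TSPO2, as for 0.071% of all features, which was not so for TUBB1. TSPO2 was picked for its likeness to TUBB1, so high levels in Og and Bl follow in part from that choice. For EDN3 the list held STEAP3, a metalloreductase gene (r = 0.925), BAALC (r = 0.879) and GINS3 (r = 0.867). For CTSZ it held UBE2E3 (r = 0.874), SMPD3 (r = 0.867) and SCYL3 (r = 0.855), and for NELFCD TXNL4B (r = 0.834), ENOX2 (r = 0.825) and C2orf76 (r = 0.794). No gene of the 7 had another of the 7 among its 3 most alike genes. With 11528 named genes and 15 birds, some high r come about with no relation between the genes.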

How the data were processed

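The 7 genes and all gene lists were chosen with earlier results of these data known. Per the submitters' processing notes, the authors made the deposited log2 values with RMA and Affymetrix Expression Console 1.3.1. Its summarization level, any probe filter and the build are not given in the sources used here. All 18308 features were used. The annotation gave 1 symbol for 12300, several for 256 and none for 5752.

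Breed means of all 15 arrays were fitted with limma 3.58.1 in R 4.3.3 (10 residual and 3.89 prior degrees of freedom). The contrasts were the 10 breed pairs, and Og, Bl and their mean against the mean of Hw, Ya and WL. Tests were two-sided and adjusted within each contrast. The labels call the arrays biological replicates. On simulated data of 18308 features, 100 were changed by 0.5 in Og and 100 by 1. In Og against WL, 24% and 81% of these were recovered, with 10 false calls. Data with fewer true changes may give lower recovery. The number of arrays limits the precision. Named were all 7 genes, nearest neighbours, passing list genes or the most shifted, and the 3 most alike genes by r. Any other list gene was picked with its values known. Alternatives were trend and robust moderation, array weights, quantile normalisation, median centring, a filter on low values, 1 feature per gene, a replicate block, only the arrays compared, and each array left out.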

Additional observations from a re-analysis of the deposited data

How the results depend on the processing

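Over 50 results followed, 0 changed direction under any alternative run. Some of these results were counts of passing genes, which have no direction. The others were followed because their unadjusted or adjusted p was under 0.05 in limma with all arrays. A change of direction was therefore unlikely from the start. ATP5E in Og against the mean of Hw, Ya and WL stayed past the threshold under 7 of 7 alternatives other than leaving out an array, and in 13 of 15 fits with 1 array left out. The number of the 7 genes that passed for the mean of Og and Bl was 1, not 0, with trend and robust moderation, with array weights, with 1 feature per named gene, and for Og alone; leaving out arrays gave 0 to 1. With only the 6 arrays compared, the number was 0, not 1, in Og against WL (ATP5E adjusted p = 0.0723) and in Og against Ya (adjusted p = 0.0569). With array weights, 2 genes passed in Og against Ya, the added one being ZNF831 (adjusted p = 0.0498). Leaving out arrays gave 0 to 1 genes in Og against WL, 0 to 1 in Og against Bl, 0 to 2 in Og against Hw, 1 to 2 in Og against Ya and 0 to 2 in the F test. The ATP5E difference of Og from Bl ranged from 0.72 to 1.08 in those fits. The smaller fits also had fewer samples, and the cause of these shifts was not tested.

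The deviations of same-numbered birds of different breeds had a median r of 0.04 over 30 pairs (from -0.09 to 0.24, with 8 above 0.1), against -0.02 over 60 differently numbered pairs (from -0.23 to 0.16, with 6 above 0.1). Same-numbered pairs exceeded 0.1 more often, but not all of them did, so the numbers were not taken to pair the birds. A rule that asks this of every pair cannot show whether some same-numbered birds share a batch. With the replicate block, 0 of 7 genes passed in Og against Hw, where ATP5E had an adjusted p of 0.0522, and 1 neighbour, RBM38, passed in Og against the mean of Hw, Ya and WL (adjusted p = 0.00758). The block also ended the calls of TUBB6 in Hw against WL (adjusted p = 0.0642) and of GP1BB in Og against WL (adjusted p = 0.0790). Over all features it gave more calls in 7 of 13 contrasts (130 in Ya against WL, where 101 passed without it) and fewer in 6 (26 in Og against WL, where 35 passed without it). EDN3 drops out under the filter on low values. Each of the 7 genes had 1 feature, so the comparison with other features of the same gene could not be run. TUBB6 in Hw against WL was kept in 4 of 15 fits with 1 array left out, and in Ya against WL in 11 of 15.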

Other observations

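TUBB6, a beta tubulin gene of the same family as TUBB1, passed as higher in Hw and Ya against WL, and WL was lower than every other breed. Its levels were 7.15, 7.06 and 7.19 in Hw and 7.12, 7.28 and 7.35 in Ya, against 6.23, 6.61 and 6.42 in WL, with no overlap. Og, at 6.83, 6.92 and 6.84, and Bl, at 7.30, 6.68 and 6.96, also lay above all WL birds, without passing. Of 18308 features, 1703 had all Hw birds above all WL birds, and 1652 had all Ya birds above them. For Og and Bl the counts were 1121 and 1533. The rise was 0.71 ± 0.14 in Hw (adjusted p = 0.0435) and 0.83 ± 0.14 in Ya (adjusted p = 0.0216) in limma, and both comparisons share the WL birds. The Hw call was lost without any 1 of the Hw or Ya birds, WL 1, WL 3, Og 2, Og 3 or Bl 3 (adjusted p up to 0.141), and the Ya call without Ya 2, Ya 3, WL 1 or WL 3 (adjusted p up to 0.0850). With only the 6 arrays compared, both were lost (adjusted p = 0.0963 in Hw and 0.0961 in Ya). TUBB6 was the 1 gene to pass among the 3 beta tubulins measured of 8 listed.

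The partners of the remaining genes gave no calls. Of the PRELI family and its partners 8 of 10 genes were measured, of the NELF and DSIF elongation factors 7 of 13, of the cathepsins 9 of 13 and of the macrophage markers 7 of 14. In limma, 0 of them passed in any breed pair or for Og and Bl together. All 18308 features gave 446 higher and 371 lower calls in these 11 comparisons, so counts of 0 do not set these short lists apart. Counts at an unadjusted p under 0.05 were taken in Og against the mean of Hw, Ya and WL. Over all features, 4.02% were higher and 817 of 18308 lower. Of the PRELI genes, 0 were higher and 1 was lower. That gene was OPA1, which serves the fusion of inner mitochondrial membranes, at -0.33 ± 0.08 (adjusted p = 0.176). For the elongation factors the counts were 0 higher and 1 lower, for the cathepsins 0 and 0, and for the macrophage markers 0 and 1. Macrophage marker means lay between 9.98 and 10.25 in Og birds and 10.02 and 10.72 in Bl birds, against 10.42 and 10.55 in Hw, 10.15 and 10.34 in Ya and 10.06 and 10.23 in WL.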
